A study of Mus musculus with 12 samples.

Results

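The genes described are the members of the 4 mouse Hox clusters, taken as every gene with a symbol of the form Hoxa, Hoxb, Hoxc or Hoxd followed by a paralog number on an Affymetrix probe set that names 1 gene. There were 33 such genes among 18193 genes with a probe set of their own: 9 of the Hoxa cluster on chromosome 6, 9 of Hoxb on chromosome 11, 7 of Hoxc on chromosome 15 and 8 of Hoxd on chromosome 2. Where a gene had several such probe sets, the one with the highest mean signal stood for it. Other Hox cluster genes were not analysed here.

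The study used 12 arrays in 6 groups of 2 to compare primordial germ cell-like cells (PGCLCs), made from embryonic stem cells in culture, with primordial germ cells (PGCs) from mouse embryos. The 4 PGCLC groups had a C57BL/6 background and carried the Blimp1-mVenus and stella-ECFP reporters (BVSC): female cells at day 3 (d3), female cells at day 6 (d6 female), male cells at day 6 (d6 male), and female day 3 cells kept for 6 further days in an aggregate with somatic cells of female E12.5 gonads (d3ag6). Both PGC groups, female PGCs of E12.5 and PGCs of E9.5 of unknown sex, carried stella-EGFP on a mixed C57BL/6 and BDF1 background, from EGFP-reporter males and wild-type BDF1 females. Every group was sorted by reporter fluorescence, so the PGCs were those cells that showed stella-EGFP. Each array received cDNA amplified from 5 ng of RNA, about 500 cells, with 12 first PCR cycles. The labels call the 2 arrays of a group biological replicates and do not say whether they came from separate inductions or litters. The p-values therefore measure the spread between these samples, pooled over the 6 groups.

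Hox genes encode homeodomain transcription factors that give cells their position along the head-to-tail axis. Genes with low paralog numbers sit at one end of a cluster and are used early and in front; genes with high numbers sit at the other end and are used later and farther back. In posterior mesoderm they are switched on as cells leave the primitive streak, while nascent germ cells, which arise in the same region, are known to shut off such a somatic mesoderm programme, a step linked to the repressor Prdm1 (Blimp1).

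The promoter windows of 3 members are shown because the results turn on them: Hoxa9 and Hoxd9 were high both in d3 PGCLCs and in E9.5 PGCs, while Hoxb1 was high in E9.5 PGCs only as far as these arrays measured it. The sequences are from RefSeq on build GRCm38.p6 and run from 250 bases before to 50 bases after the gene's start. The Hoxa9 window lies at chr6:52227321-52227620 on the minus strand and the Hoxd9 window at chr2:74697513-74697812 on the plus strand, both with CpG dinucleotides in capitals. The Hoxb1 window lies at chr11:96365508-96365807 on the plus strand, with a match to the PBX-HOX motif TGATNNAT in capitals.
Hoxa9: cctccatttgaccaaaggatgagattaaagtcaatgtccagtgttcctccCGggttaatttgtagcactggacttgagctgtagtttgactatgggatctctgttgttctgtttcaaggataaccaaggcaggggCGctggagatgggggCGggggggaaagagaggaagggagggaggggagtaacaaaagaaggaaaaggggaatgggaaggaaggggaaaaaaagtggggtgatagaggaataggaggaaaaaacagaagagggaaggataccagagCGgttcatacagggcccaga
Hoxd9: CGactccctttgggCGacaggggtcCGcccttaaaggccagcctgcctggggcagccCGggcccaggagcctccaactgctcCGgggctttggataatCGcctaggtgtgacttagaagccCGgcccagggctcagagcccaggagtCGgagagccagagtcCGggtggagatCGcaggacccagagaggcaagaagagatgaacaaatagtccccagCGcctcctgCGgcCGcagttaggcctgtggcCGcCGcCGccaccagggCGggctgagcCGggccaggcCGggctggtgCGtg
Hoxb1: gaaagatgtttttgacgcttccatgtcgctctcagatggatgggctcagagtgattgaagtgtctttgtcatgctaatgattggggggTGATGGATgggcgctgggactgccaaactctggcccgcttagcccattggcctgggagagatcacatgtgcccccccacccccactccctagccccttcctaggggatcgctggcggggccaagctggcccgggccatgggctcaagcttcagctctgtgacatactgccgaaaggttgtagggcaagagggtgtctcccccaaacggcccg

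The Hoxd9 window held 20 CpG dinucleotides and 68.3% G and C, the Hoxb1 window 10 and 59.3%, and the Hoxa9 window 4 and 49.7%. Windows were given for 19 of the 33 members, 21 windows in all. Their median was 15 CpG dinucleotides, with a range of 4 to 45, against 7 over all 32851 windows of the same length, and 18 of the 21 lay above that overall median. The motif TGATNNAT, searched on both strands, occurred in 3 of the 21 windows (Hoxa2, Hoxb1 and Hoxd11) and in 8.85% of all windows. TTTATG, a motif of CDX factors, occurred in 3 of the 21 (Hoxa7, Hoxd3 and Hoxd11) and in 11.9% of all. Hoxd11 had both motifs among its windows. GAAAGTGA, a PRDM1 motif, was in none of the 21 and in 1.47% of all windows. The direct repeat 5 motif of retinoic acid receptors was in none of the 21 and in 0.00913% of all. These matches describe letters in the windows and show no binding.

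Signals are log2 values, so a difference of 1 is a doubling. Testing was limited to genes above 4.81 on 2 arrays or more, a value that is the median of the whole table and is here called the filter level. This left 13444 genes and 21 of the 33 Hox genes. Of these 21, 11 exceeded the level only on d3 or E9.5 arrays, namely Hoxa9, Hoxa10, Hoxb1, Hoxb2, Hoxb3, Hoxc4, Hoxc8, Hoxc9, Hoxc10, Hoxd10 and Hoxd13. Such a gene entered the test through the group where it was high, so the counts of called members below describe these arrays and are not independent evidence of a direction. Adjusted p-values are Benjamini-Hochberg values over all genes tested from 1 limma fit of all 12 arrays, and "called" means an adjusted p under 0.05. All arrays of the d3ag6, d3, E12.5 and d6 female groups carry the array code EA1013, whereas E9.5 and d6 male each have 1 array coded EA0831 and 1 coded EA0842. In a comparison between these sets, code and group cannot be told apart.

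More Hox genes gave a signal above the filter level in d3 PGCLCs and E9.5 PGCs than in the other 4 groups. On the E9.5 arrays 25 and 19 of the 33 members exceeded the filter level, and on the d3 arrays 14 and 17. On the arrays of E12.5, d3ag6 and both d6 groups the number was 5 to 7. Over all genes the share above the level was 66.8% to 68.4% on every array. The map of all 33 genes shows high values in the d3 columns at the left and the E9.5 columns at the right, with Hoxb1, Hoxb3 and Hoxb9 high at E9.5 and not at d3. In bulk samples like these, fewer cells that express a gene and less RNA in each cell cannot be told apart.

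**Figure D1:**
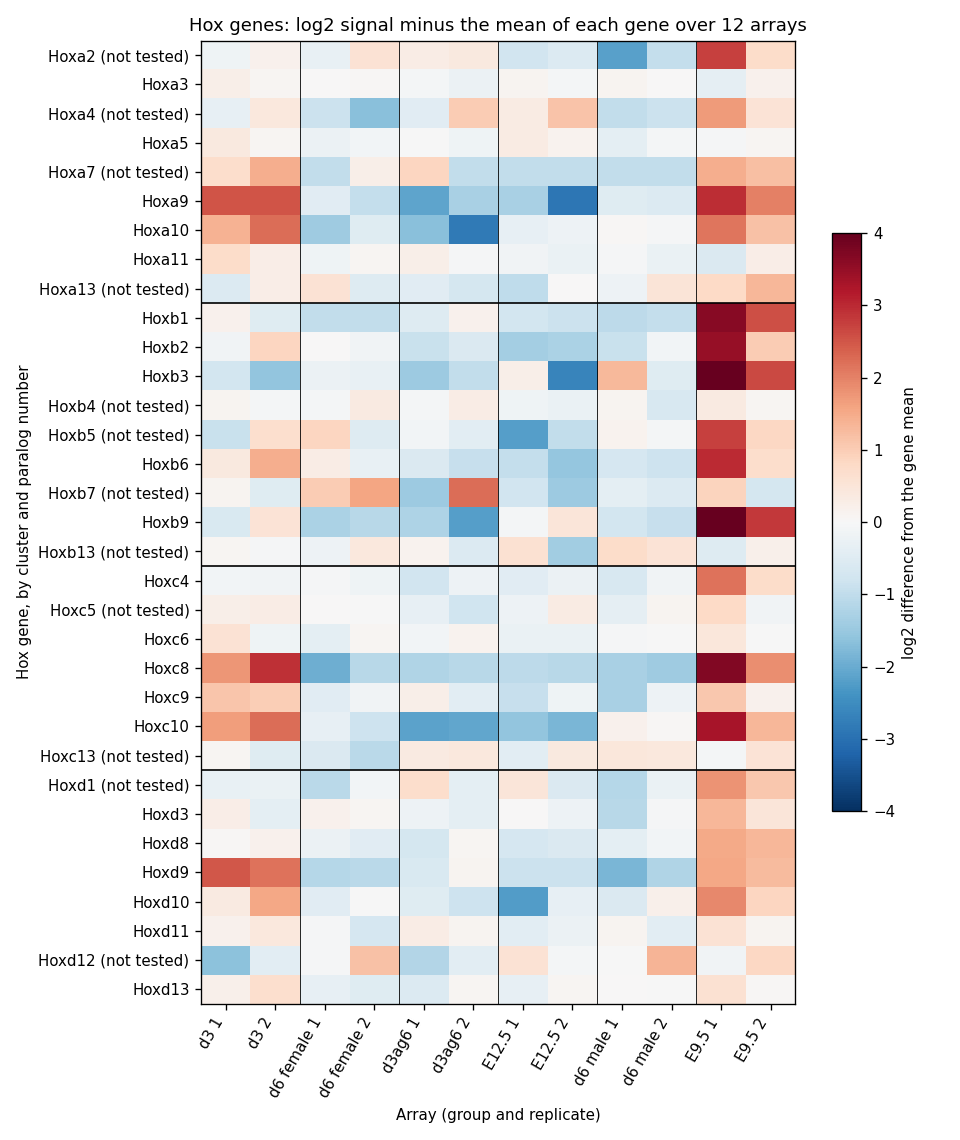
Log2 signal of each of the 33 Hox genes minus that gene's mean over the 12 arrays, by cluster and paralog number (vertical) and array (horizontal); red is above the gene's mean, blue below, and genes that were not tested are marked. The d3 and E9.5 columns hold most of the red; Hoxb1, Hoxb3 and Hoxb9 are red at E9.5 and pale or blue at d3.

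The first comparison asked how 3 more days of culture changed female PGCLCs. From d3 to d6, 5 Hox genes fell and none rose: Hoxa9, Hoxa10, Hoxc8, Hoxc10 and Hoxd9. The background in this comparison was 2.34% of all tested genes called lower and 4.05% called in either direction. All 5 have paralog numbers of 8 to 10, factors that pattern thoracic and lumbar levels of the trunk. The median difference over the 33 members was -0.44, against -0.01 over all genes, tested or not.

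Hoxd9, a factor of posterior trunk and limb, read 8.12 and 7.81 on the d3 arrays, 4.49 and 4.58 at d6 female, 5.05 and 5.74 at d3ag6, 4.77 and 4.78 at E12.5, 3.83 and 4.45 at d6 male, and 7.19 and 6.92 at E9.5. The d3 and E9.5 arrays stood above every other array without overlap. Its fall from d3 to d6 kept its call with any single array left out, at a limma adjusted p of at most 0.0134.

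Hoxa9, also known for its part in blood progenitors, read 7.19 and 7.18 at d3, 4.22 and 3.70 at d6 female, 2.57 and 3.38 at d3ag6, 3.38 and 1.79 at E12.5, 4.19 and 4.13 at d6 male, and 7.62 and 6.67 at E9.5. Again the 4 arrays of d3 and E9.5 lay above the other 8, all of which were under the filter level. The difference from d3 to d6 was -3.22 (SE 0.51; limma adjusted p 0.011). It was -2.37 with values under the filter level set to it. This call held with 1 of the 4 arrays left out and was lost without d3 replicate 1 or either d6 female array, with adjusted p up to 0.0712.

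Hoxa10, which patterns lumbar vertebrae and the uterus, read 6.14 and 6.98 at d3, 3.33 and 4.27 at d6 female, 3.08 and 1.90 at d3ag6, 4.42 and 4.53 at E12.5, 4.79 and 4.69 at d6 male, and 6.87 and 5.90 at E9.5. Its d3 and d6 arrays did not overlap, and the difference was -2.76 (SE 0.49; limma adjusted p 0.0172), or -1.75 with values under the level set to it. Leaving out d3 replicate 2 or d6 female replicate 1 raised the adjusted p to as much as 0.132.

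Hoxc8, a thoracic patterning factor, read 5.40 and 6.54 at d3 and 1.68 and 2.52 at d6 female. On the arrays of d3ag6, E12.5 and d6 male it lay between 2.21 and 2.56, and at E9.5 it read 7.31 and 5.49. The groups did not overlap, and the d3 to d6 difference was -3.87 (SE 0.56; limma adjusted p 0.00764), lost only without d6 female replicate 1 (adjusted p 0.0716). With values under the filter level set to it, the same difference was -1.16 and was not called.

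Hoxc10, a factor of lumbar motor neurons, read 5.91 and 6.47 at d3, 3.91 and 3.40 at d6 female, 2.10 and 2.15 at d3ag6, 2.65 and 2.39 at E12.5, 4.40 and 4.28 at d6 male, and 7.52 and 5.56 at E9.5. Its difference from d3 to d6 was -2.54 (SE 0.52; limma adjusted p 0.031). This was the least firm of the 5 calls: it was lost whichever of the 4 arrays was left out, with adjusted p from 0.089 to 0.155, and with values under the level set to it (-1.38, 0.199). Without d6 female replicate 1 the count of called members was 1, and without any of the other 3 arrays it was 3.

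**Figure D2:**
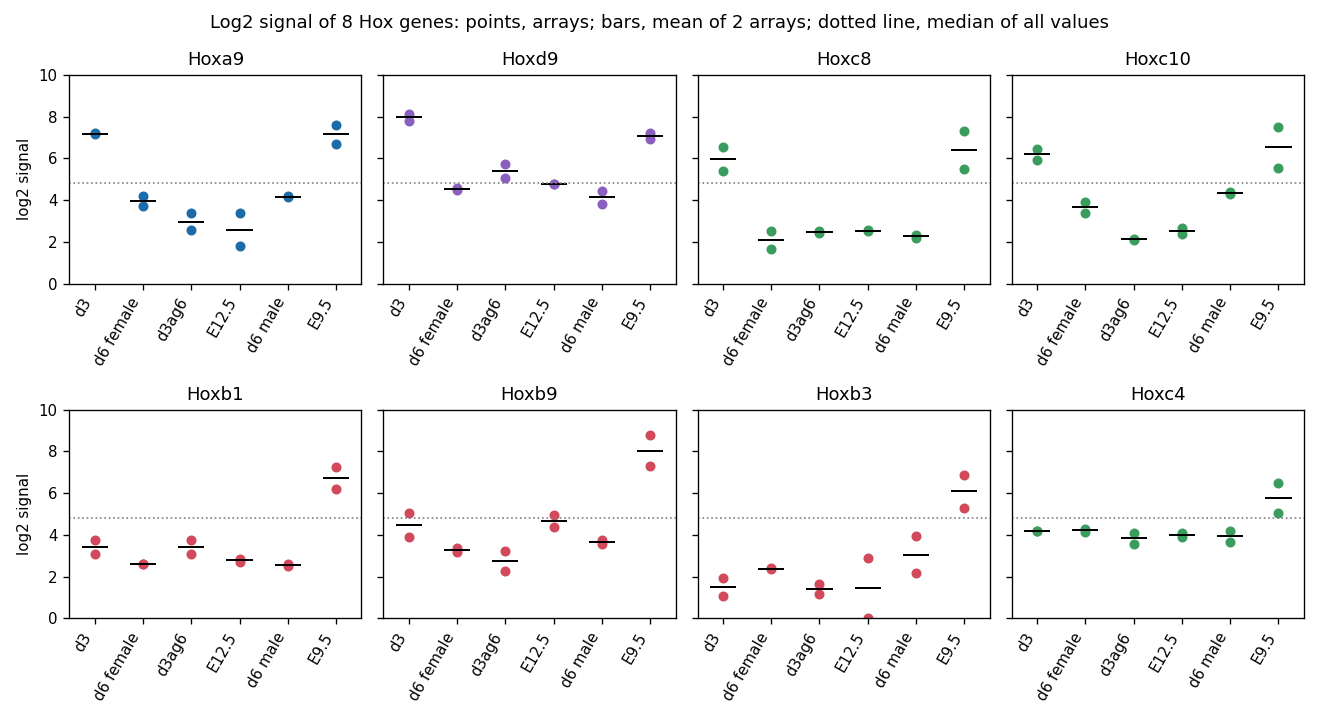
Log2 signal of 8 Hox genes on each array (points) with the mean of the 2 arrays of a group (bars); the dotted line is the filter level of 4.81. Hoxa9, Hoxd9, Hoxc8 and Hoxc10 are high at d3 and E9.5, while Hoxb1, Hoxb9, Hoxb3 and Hoxc4 are high at E9.5 and low or near the level at d3.

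Among the members that were not called from d3 to d6, Hoxc9 read 5.51 and 5.36 at d3 against 3.94 and 4.25 at d6 female, groups that did not overlap, with a difference of -1.34 (SE 0.44; limma adjusted p 0.155). Hoxb9 differed by -1.17 (limma adjusted p 0.323) and Hoxd10 by -1.19 (0.425). At an unadjusted p under 0.05, 9 members passed.

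The aggregated cells were compared with PGCLCs before aggregation, with PGCLCs cultured without it, and with E12.5 PGCs. Against d3, d3ag6 cells had 5 lower Hox genes and none higher, with 4.83% of all tested genes called lower and 10.6% in either direction. These were Hoxa9 (-4.21, SE 0.51, limma adjusted p 0.00134), Hoxa10 (-4.07, SE 0.49, 0.0013), Hoxc8 (-3.50, SE 0.56, 0.00539), Hoxc10 (-4.07, SE 0.52, 0.00174) and Hoxd9 (-2.57, SE 0.27, 0.000791). All 5 kept their call whichever of the 4 arrays was left out. With values under the filter level set to it, Hoxa9 differed by -2.37, Hoxa10 by -1.75 and Hoxd9 by -2.57, while Hoxc8 at -1.16 (limma adjusted p 0.212) and Hoxc10 at -1.38 (0.122) lost their calls. The 5 are the genes called from d3 to d6, but the 2 comparisons share the d3 arrays and are not independent of each other.

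Markers of other cell types moved in the same comparison, where 10.6% of all tested genes were called in either direction. Of 10 tested endothelium and blood markers 3 rose from d3 to d3ag6, the myeloid genes Ctss by 7.16 (SE 1.37), Lyz2 by 3.93 (SE 0.32) and Tyrobp by 2.30 (SE 0.23), and none fell; the summed signal of the 11 measured went from 8.92 and 8.89 to 10.59 and 10.96. Of 12 tested gonadal somatic cell markers Rspo1 rose by 3.46 (SE 0.73) and Amhr2 by 1.59 (SE 0.31), with none lower, and of 9 tested mesenchyme markers Col3a1 rose by 4.02 (SE 0.46). Of 12 tested somatic mesoderm markers 3 fell, Tbx3, Msx1 and Msx2, and Lhx1 rose. Their part in the Hox differences was not tested.

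Against d6 female cells, d3ag6 cells had no called Hox gene with limma, where 6.42% of all tested genes were called; 4 members had an unadjusted p under 0.05. Hoxd9 was 0.86 higher (SE 0.27; limma adjusted p 0.103) and Hoxc10 differed by -1.53 (SE 0.52; limma adjusted p 0.121), neither past the test. Member differences among the tested genes ran from -1.53 to 0.86.

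Against E12.5 PGCs, the embryonic cells from the same kind of gonad, d3ag6 cells had 1 called Hox gene, Hoxa10, at -1.99 (SE 0.49; limma adjusted p 0.0372), with 3.07% of genes called lower and 9.02% in either direction. Both groups were under the filter level for this gene. With values under the level set to it the difference was 0.0, and leaving out d3ag6 replicate 2 or either E12.5 array ended the call (adjusted p up to 0.233). The d6 female cells had no called Hox gene against E12.5 PGCs with limma, where 19.4% of all genes were called; 2 members, Hoxa9 at 1.38 and Hoxb9 at -1.40, had an unadjusted p under 0.05. Against E12.5 the 33 members had medians of 0.27 for d3ag6 and 0.24 for d6 female, with 0.0 and 0.01 over all genes; both comparisons share the E12.5 arrays.

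Female and male d6 PGCLCs had no called Hox gene with limma, and none passed at an unadjusted p under 0.05, where 1.47% of all genes were called. The tested members differed by -0.94 to 0.75. Array code and sex cannot be told apart here.

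In the embryo, the step from E9.5 to E12.5 PGCs had the most called members. Here 13 Hox genes fell and none rose: Hoxa9, Hoxa10, Hoxb1, Hoxb2, Hoxb3, Hoxb6, Hoxb9, Hoxc4, Hoxc8, Hoxc10, Hoxd8, Hoxd9 and Hoxd10. The background was 10.7% of all genes called lower and 23.6% in either direction. The median difference over the 33 members was -1.56, against 0.07 over all genes. All 5 tested members of the Hoxb cluster were called, 2 of 5 of Hoxa, 3 of 5 of Hoxc and 3 of 6 of Hoxd. These cluster counts depend on the probe set that stood for each gene. Another probe set of Hoxa3 (-5.85), of Hoxa5 (-3.97) and of Hoxc6 (-3.6) was called lower in this step when tested on its own.

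Hoxb1, which sets hindbrain identity and is known to maintain itself together with PBX partners, read 7.23 and 6.18 at E9.5. On the other 10 arrays it lay between 2.53 and 3.77, under the filter level throughout. The E12.5 difference from E9.5 was -3.91 (SE 0.36; limma adjusted p 0.000211), and it kept its call with any array left out. The difference was -1.89 with values under the level set to it.

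Hoxb9, a thoracic patterning factor, read 8.77 and 7.29 at E9.5, 3.88 and 5.03 at d3, 3.20 and 3.36 at d6 female, 3.23 and 2.28 at d3ag6, 4.40 and 4.95 at E12.5, and 3.74 and 3.56 at d6 male. The E9.5 arrays stood above all the others, and the E12.5 difference was -3.35 (SE 0.53; limma adjusted p 0.00265). With values under the level set to it the difference was still -3.15.

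Hoxb3, a hindbrain and neck factor, read 6.89 and 5.29 at E9.5 and between 0.00 and 3.94 elsewhere. One E12.5 array was listed at 0 for it, so the fitted difference of -4.64 (SE 0.93; limma adjusted p 0.00768) rests partly on a value with no measured level; with the floor at the filter level it was -1.28. Hoxb2, a hindbrain factor, read 8.15 and 5.68 at E9.5, 4.53 and 5.54 at d3, and between 3.32 and 4.69 on the other 8 arrays. Its E9.5 arrays lay above all others, replicate 2 by little, and the E12.5 difference was -3.56 (SE 0.67; limma adjusted p 0.00619).

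Hoxb6, active in trunk mesoderm, read 7.80 and 5.52 at E9.5, 5.22 and 6.27 at d3, 5.11 and 4.53 at d6 female, and between 3.27 and 4.26 on the other 6 arrays. The E9.5 and d3 arrays overlapped, whereas the E12.5 arrays lay lower by 3.09 on average (SE 0.64; limma adjusted p 0.00906, lost without E12.5 replicate 2 at 0.0651). Hoxc4, a neck-level factor, read 6.50 and 5.05 at E9.5 and between 3.57 and 4.28 on every other array; it fell by 1.80 to E12.5 (SE 0.41; limma adjusted p 0.0133, up to 0.0829 without an E12.5 array).

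Hoxd8, expressed in the trunk, read 6.77 and 6.58 at E9.5, 5.30 and 5.41 at d3, and between 4.54 and 5.33 on the other 8 arrays. Its E9.5 replicates were close, and the E12.5 difference was -2.05 (SE 0.25; limma adjusted p 0.000764). Hoxd10, a factor of hindlimb motor neurons, read 5.74 and 4.66 at E9.5, 4.17 and 5.37 at d3, and between 1.57 and 4.02 on the other 8 arrays. Its call at E12.5 (-2.68, SE 0.64, limma adjusted p 0.017) was lost without E12.5 replicate 1 or E9.5 replicate 1, at an adjusted p of up to 0.112.

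Genes that were also high at d3 fell from E9.5 to E12.5 as well: Hoxa9 by 4.56 (SE 0.51), Hoxc10 by 4.02 (SE 0.52), Hoxc8 by 3.87 (SE 0.56), Hoxd9 by 2.28 (SE 0.27) and Hoxa10 by 1.91 (SE 0.49). Their limma adjusted p-values ran from 0.000511 for Hoxa9 to 0.0217 for Hoxa10. Hoxa10 lost its call without E9.5 replicate 1 or either E12.5 array, with adjusted p up to 0.118, and the other 4 kept theirs. In the same order the 5 differed by -2.33, -1.73, -1.59, -2.24 and -1.57 with values under the filter level set to it, and Hoxc8 lost its call (limma adjusted p 0.0561).

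The E9.5 arrays were compared with d6 PGCLCs too. Male d6 cells had 11 lower Hox genes and none higher, with 4.57% of all genes called lower and 10.6% in either direction. These 11 were Hoxa9, Hoxb1, Hoxb2, Hoxb6, Hoxb9, Hoxc4, Hoxc8, Hoxc10, Hoxd3, Hoxd8 and Hoxd9. This comparison is the one against E9.5 in which both groups have 1 array of each code. All 11 were lower within code EA0831, by 1.92 to 5.03, and all 11 within code EA0842, by 0.54 to 3.73. With the code as a block 12 members were called, Hoxb3 being the addition (-3.04, limma adjusted p 0.0385). Without d6 male replicate 1 the count was 6 and without E9.5 replicate 1 it was 7.

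Hoxd3, which patterns the uppermost vertebrae, was called in this comparison alone. It read 6.47 and 5.64 at E9.5, 4.03 and 5.11 at d6 male, and between 4.75 and 5.43 on the other 8 arrays. The difference of -1.49 (SE 0.39; limma adjusted p 0.0408) lost its call without E9.5 replicate 1 or d6 male replicate 1, at an adjusted p of up to 0.21.

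Female d6 cells had 10 lower Hox genes than E9.5 PGCs and none higher, with 5.59% of all genes called lower and 13.9% in either direction. The 10 included Hoxb9 (-4.75, SE 0.53, limma adjusted p 0.000896), Hoxc8 (-4.31, SE 0.56, 0.00179) and Hoxb1 (-4.11, SE 0.36, 0.00031). The others were Hoxa9, Hoxa10, Hoxb3, Hoxc4, Hoxc10, Hoxd8 and Hoxd9. Leaving out E9.5 replicate 1 left 7 called members. Hoxb3 and Hoxc4 lost their calls without E9.5 replicate 1 or either d6 female array, with adjusted p up to 0.134 and 0.148. Hoxa10 lost its call without E9.5 replicate 1 or d6 female replicate 1 (up to 0.073), and Hoxc10 without d6 female replicate 2 (0.0554). These 3 comparisons share the 2 E9.5 arrays, so what they have in common is not independent.

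The 2 E9.5 arrays differed from each other in the Hox genes. Replicate 1 is coded EA0831 and replicate 2 EA0842, so sample and array code cannot be told apart between them. Replicate 1 was the higher in 26 of 33 members, with a median gap of 0.9, whereas 52.6% of all tested genes were higher in replicate 1 and their median gap was 0.03. In the other 5 groups 15 or 16 of the 33 members were higher in replicate 1. The median size of the gap, in either direction, was 0.92 at E9.5 and 0.24 to 0.57 in the other groups. The fit pools 1 spread per gene over all groups, so the SEs against E9.5 do not reflect its wider spread.

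Mesenchyme markers and embryonic globins were high in the E9.5 group. The summed linear signal of 10 mesenchyme markers, as log2, was 11.84 and 10.67 on the E9.5 arrays and 8.51 to 10.41 on the other 10. On each E9.5 array 9 of the 10 markers exceeded the filter level. Acta2 did not set E9.5 apart, at 9.31 and 8.36 there and 9.39 and 8.86 at d6 male. The sum of 11 measured endothelium and blood markers was 13.33 and 12.18 at E9.5 and 8.89 to 10.96 elsewhere; 2 embryonic globins stood out, Hba-x at 12.72 and 11.73 against at most 6.53 on other arrays and Hbb-bh1 at 11.52 and 9.64 against at most 6.40. Of the endothelial genes, several were higher elsewhere: Kdr read 5.44 and 5.35 there and 6.65 and 6.84 at d6 male, Tek had means of 5.88 and 8.26, and Tek, Tie1, Esam and Kdr were all called higher at d6 male than at E9.5. The paraxial mesoderm gene Foxc2 read 8.24 and 6.17 at E9.5 and at most 3.99 elsewhere, and Meox1 read 7.97 and 6.59 and at most 4.62 elsewhere. Not every gene of the somatic mesoderm list ran this way. Of 12 tested, 3 fell and 2 rose from E9.5 to E12.5, where 23.6% of all tested genes were called. The 2 that rose were Lhx1 (by 2.18) and Msx1 (by 0.74). Tbx3 and Msx1 were called higher at d3 than at E9.5, by 2.97 and 1.35. No marker of these lists was at 0 on any array. The sums of the other lists did not set E9.5 apart. Gonadal somatic cell markers summed to 10.34 and 9.43 at E9.5 and to 9.72 and 9.87 at d3ag6. Within that list Nr2f2 read 8.52 and 6.28 at E9.5 and at most 4.79 elsewhere, and Pdgfra 8.19 and 6.67 and at most 5.16. From E9.5 to E12.5 these 2 fell and Amhr2 rose, of 12 tested. Somatic mesoderm markers summed to 10.97 and 10.93 at E9.5, 10.65 and 10.98 at d3 and 10.88 and 10.86 at E12.5. The sums of these 4 lists were higher in E9.5 replicate 1, the last by little, and most Hox genes were higher in that array too. Germ cell markers summed to 14.95 and 15.23 at E9.5 and 14.77 to 15.42 elsewhere, with 9 or 10 of 10 above the level. The part of other cells in the Hox values at E9.5 was not tested.

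**Figure D3:**
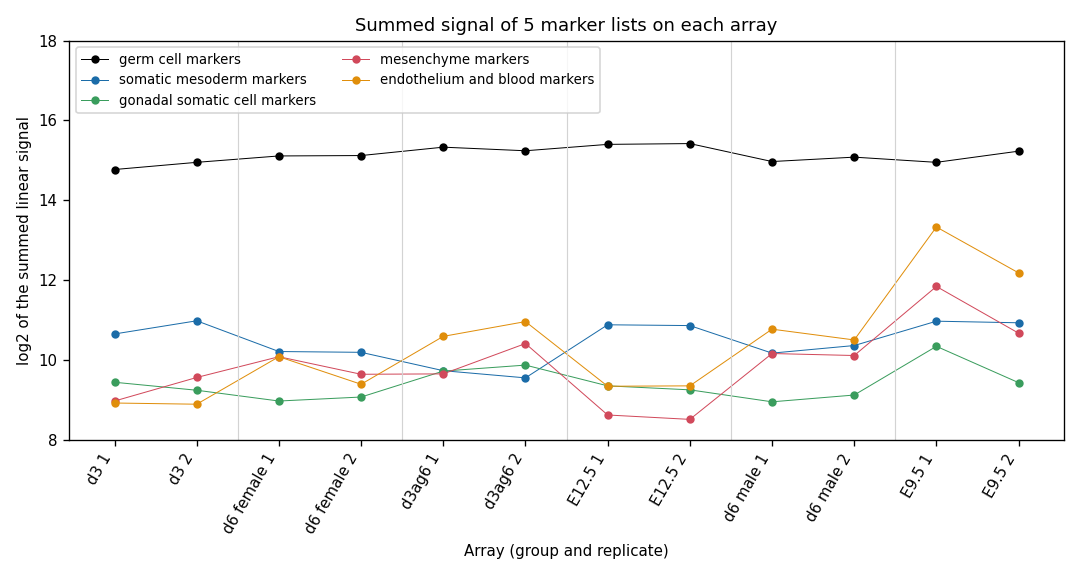
Log2 of the summed linear signal of 5 marker lists (vertical) on each of the 12 arrays (horizontal), lines joining arrays only to guide the eye. Endothelium and blood markers and mesenchyme markers are highest on the 2 E9.5 arrays, and replicate 1 exceeds replicate 2, while germ cell markers stay between 14.77 and 15.42.

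A comparison of d3 PGCLCs with E9.5 PGCs was chosen after seeing the data, because these were the groups with high Hox signal. It had 5 lower Hox genes and none higher: Hoxb1 (-3.26, SE 0.36, limma adjusted p 0.000914), Hoxb3 (-4.59, SE 0.93, 0.0134), Hoxb9 (-3.58, SE 0.53, 0.00361), Hoxc4 (-1.59, SE 0.41, 0.0323) and Hoxd8 (-1.32, SE 0.25, 0.00984). Here 5.38% of all genes were called lower and 14.3% in either direction. Hoxb1 and Hoxb9 kept their calls with any array left out. The count was 2 without d3 replicate 1, 3 without d3 replicate 2, 3 without E9.5 replicate 1 and 9 without E9.5 replicate 2. Hoxa9 differed by 0.04 (SE 0.51), Hoxa10 by 0.18 (SE 0.49), Hoxc8 by -0.43 (SE 0.56) and Hoxc10 by -0.35 (SE 0.52), less than their standard errors, and Hoxd9 by 0.92 (SE 0.27; limma adjusted p 0.056). Array code and group cannot be told apart in this comparison. A second Hoxd8 probe set differed by -0.19 (SE 0.42, limma adjusted p 0.804) and was not called. Tested on their own, another probe set of Hoxa3 (-4.54) and another of Hoxa5 (-4.06) were called lower. Other probe sets of Hoxc6 (-1.27 and -1.01) and a further one of Hoxa3 (-0.47) were not called.

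By position along the clusters, the median d3 to d6 falls were largest at paralog numbers 8 to 10, at -2.16, -2.28 and -2.54. The median was -0.61 at 11 and -0.26 at 13, and the single member numbered 12, which was not tested, differed by 1.59. The median at 8 covers 2 members far apart, Hoxc8 at -3.87 and Hoxd8 at -0.44. Another probe set of Hoxc6, which is not part of these medians, differed by -3.14 and was not called (limma adjusted p 0.102). In broader bands the median difference was -0.04 over the 10 members with paralog numbers 1 to 4 and -0.39 over the 9 members numbered 5 to 8. It was -1.01 over the 14 members numbered 9 to 13. In the 3 bands 0 of 6, 1 of 5 and 4 of 10 tested members were called lower, against 2.34% of all tested genes. All 4 members numbered 9 and all 3 numbered 10 were lower by more than 1. With values under the filter level set to it, Hoxb9 differed by only -0.11, Hoxc9 by -0.62 and Hoxd10 by -0.28. These 3 were not called in the main fit. For d3 against E9.5 the order of the bands was the other way round, with medians of -1.66, -0.29 and 0.0. There 3 of 6, 1 of 5 and 1 of 10 were called lower, against 5.38% of all tested genes. The 3 of the first band, Hoxb1, Hoxb3 and Hoxc4, exceeded the filter level on E9.5 arrays only and entered the test through E9.5. At d3 they were under the level already, with means of 3.44, 1.5 and 4.19. This left little room to measure a fall from d3 to d6, so neither band order is independent of the filter level. The member called in the second band was Hoxd8, whose other probe set was not called. From E9.5 to E12.5 the 3 medians were -1.64, -2.05 and -1.37. In that step 4 of 6, 3 of 5 and 6 of 10 were called lower, against 10.7% of all tested genes. These are descriptions, since the position of a gene was not a term of the fit, and the first and the second share the d3 arrays.

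**Figure D4:**
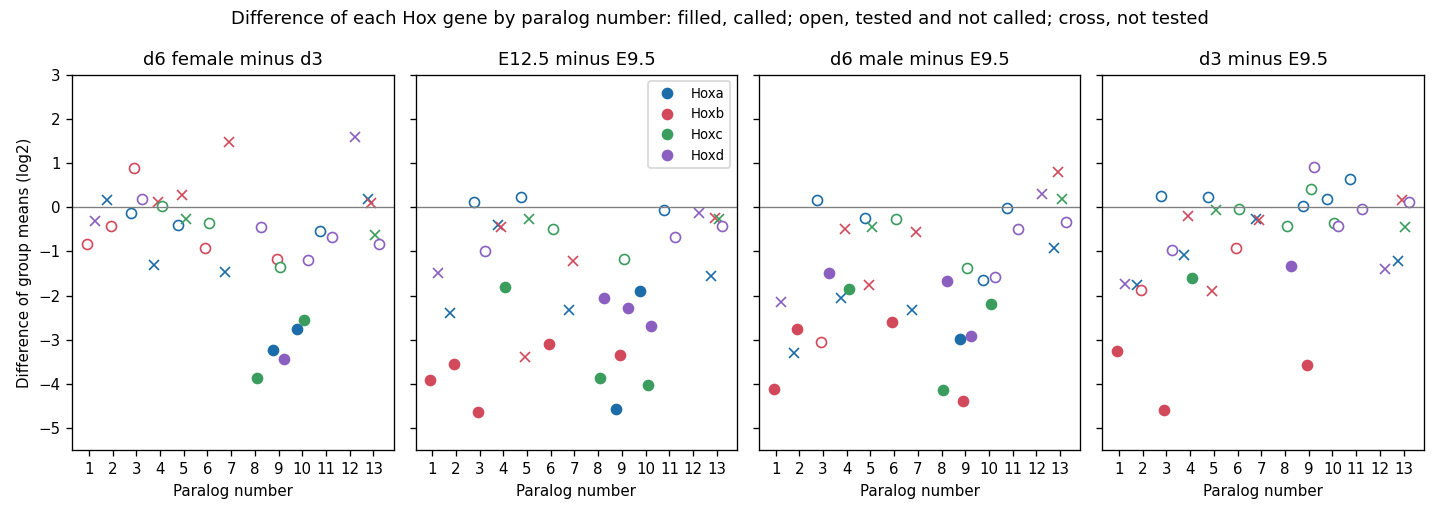
Difference of group means (log2) of each of the 33 Hox genes against its paralog number in 4 comparisons; colours give the cluster, filled points are called, open points tested and not called, crosses not tested. From d3 to d6 the called points have numbers 8 to 10, whereas against E9.5 called points lie along the range from 1 to 10.

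Whether the fall from E9.5 to E12.5 differed from the fall from d3 to d3ag6 was tested directly with an interaction term, also chosen after seeing the data. It was called for 2 Hox genes, both with a positive term, where 2.71% of all genes were called in that direction and 5.07% in either. Hoxb1 differed by -0.02 in culture and by -3.91 in the embryo, a gap of 3.89 (SE 0.51; limma adjusted p 0.00476) that kept its call in all 8 fits with 1 array left out. The Hoxb1 gap was 1.89 with values under the filter level set to it (limma adjusted p 0.0238). Hoxb1 was under the level at d3 already, which left little room to measure a fall in culture, and it was high at E9.5 alone. From d3 to d6 female it differed by -0.85 (limma adjusted p 0.287), not called. Hoxd8 differed by -0.41 and -2.05, a gap of 1.64 (SE 0.35; limma adjusted p 0.0319) called in 2 of those 8 fits. A second Hoxd8 probe set gave a gap of 0.69 (SE 0.60; limma adjusted p 0.603), not called. For Hoxa9 the gap was 0.35 (SE 0.72) and for Hoxd9 -0.30 (SE 0.39), neither past the test. Array code separates the E9.5 arrays from the other 3 groups of this term.

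The 7 tested members that were called in no comparison were Hoxa3, Hoxa5, Hoxa11, Hoxc6, Hoxc9, Hoxd11 and Hoxd13. Hoxa3, Hoxa5, Hoxa11 and Hoxc6 exceeded the filter level on all 12 arrays and were nearly flat: Hoxa3 ranged from 5.67 to 6.28, Hoxa5 from 6.49 to 7.29, Hoxa11 from 4.91 to 6.21 and Hoxc6 from 6.27 to 7.22. Hoxa5 and Hoxc6 are also 2 of the 3 members with the highest mean signal; the third is Hoxa3, and a high signal of one probe set cannot be set against that of another. Hoxd11 ranged from 4.07 to 5.32 and Hoxd13 from 3.92 to 5.13, both near the level.

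For 3 of these flat genes a second probe set had another pattern. The Hoxa3 probe set 1427433_s_at read 7.03 and 5.69 at E9.5 and between 0.42 and 3.36 on the other 10 arrays. The Hoxa5 probe set 1448926_at read 7.02 and 5.49 at E9.5 and at most 3.37 elsewhere. The Hoxc6 probe set 1427454_at read 9.05 and 5.74 at E9.5, 5.97 and 6.29 at d3, and between 2.67 and 4.86 on the other 8 arrays.

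So these probe sets were high at E9.5, and that of Hoxc6 also at d3, while the represented probe set of the same gene did not move. Tested as features of their own, a step chosen after seeing the data, they differed between E12.5 and E9.5 by -5.85 (SE 0.43; limma adjusted p 0.000147) for Hoxa3, -3.97 (SE 0.78; 0.00908) for Hoxa5 and -3.60 (SE 0.83; 0.0174) for Hoxc6. Which probe set follows the gene's main transcript was not tested. For Hoxd8 the other probe set was lower at E12.5 than at E9.5 as the first one was, by -2.37 (SE 0.42; limma adjusted p 0.00597), and it was also called from d3 to d3ag6 (-1.69; 0.0447). Of the 33 members, 11 had more than 1 such probe set.

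**Figure D5:**
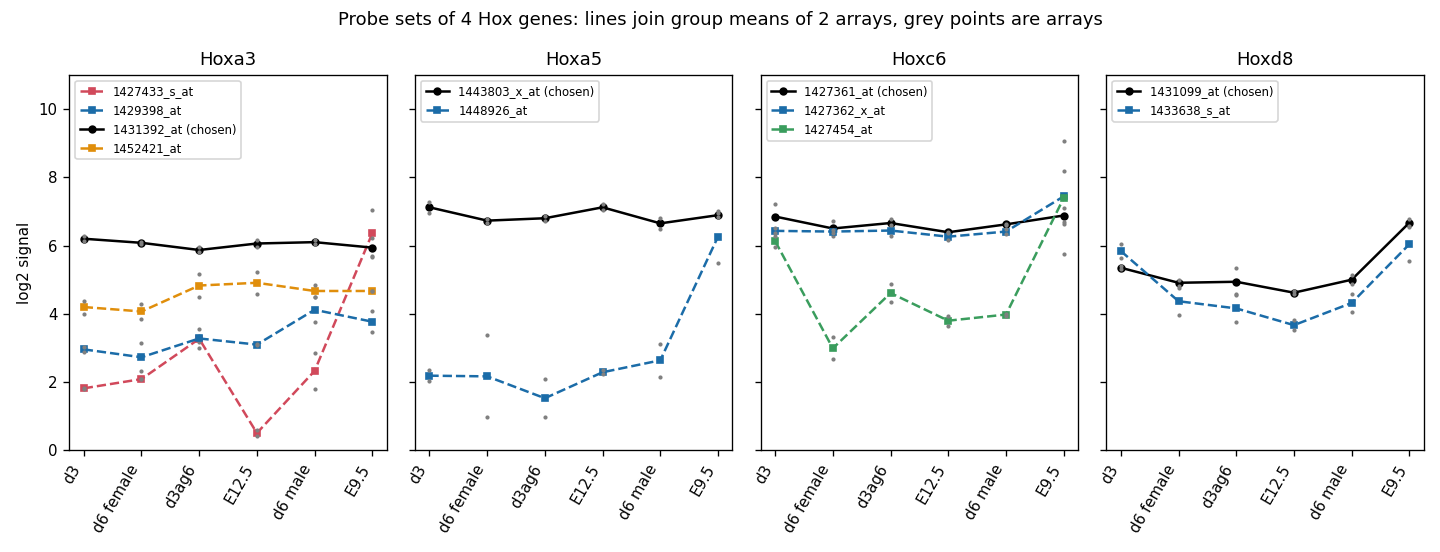
Log2 signal of every probe set that names only Hoxa3, Hoxa5, Hoxc6 or Hoxd8 in the 6 groups; lines join group means of 2 arrays and grey points are the arrays. The black lines (the represented probe set) of Hoxa3, Hoxa5 and Hoxc6 are flat, whereas 1 other probe set of each rises at E9.5.

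The 12 members that were not tested had at most 1 array above the filter level. Hoxa2 read 6.08 and 4.09 at E9.5 and between 1.18 and 3.94 elsewhere, and Hoxb5 read 6.16 and 4.25 at E9.5 and between 1.22 and 4.28 elsewhere. Hoxd1 reached 4.82 and Hoxc5 5.21, each on E9.5 replicate 1, and Hoxa13 reached 5.25 on E9.5 replicate 2. The remaining 7, Hoxa4, Hoxa7, Hoxb4, Hoxb7, Hoxb13, Hoxc13 and Hoxd12, were under the level on all 12 arrays in the probe set that stood for them. Another probe set of Hoxa4, 1427354_at, read 5.44 on E9.5 replicate 1, under the level on replicate 2, and at most 3.32 elsewhere, and another of Hoxc5, 1439885_at, read 6.34 and 4.19 at E9.5 and at most 3.89 elsewhere. In its own probe set Hoxa4 had its highest value, 4.58, and Hoxb4 its highest, 4.57, at E9.5 replicate 1, whereas Hoxb7 peaked at 3.71 in d3ag6 replicate 2. These dim values cannot show whether such a gene was off.

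Among paralogs of the called genes, group means differed in size of change. The paralog 9 genes all had lower means at d6 female than at d3, though only Hoxa9 and Hoxd9 passed the test. Hoxa9 went from 7.18 to 3.96, Hoxb9 from 4.45 to 3.28, Hoxc9 from 5.43 to 4.09 and Hoxd9 from 7.97 to 4.53. At paralog 1, Hoxd1 had group means of 2.33 to 3.19 outside E9.5 and 4.47 at E9.5, and like Hoxb1 had its highest mean at E9.5. At paralog 4, Hoxb4 stayed between 3.95 and 4.43 and Hoxa4 between 1.61 and 4.01, with neither tested.

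Partners and regulators of the Hox genes were described from lists. Of 8 tested Hox cofactors, the PBX, MEIS and PKNOX partners that bind DNA with Hox proteins, none was called from d3 to d6 with limma. Over all tested genes 4.05% were called in that comparison. From E9.5 to E12.5, 4 of 8 fell, where 10.7% of all genes did: Pknox2 by 2.33 (SE 0.47), Pbx4 by 2.02 (SE 0.44), Meis2 by 1.79 (SE 0.30) and Meis3 by 0.91 (SE 0.16), at limma adjusted p-values of 0.00371 to 0.0107. Of 13 tested axial regulators of Hox genes, 4 fell from d3 to d6 and none rose, where 2.34% of all genes fell. These were the signalling genes Wnt5a, by 5.30 (SE 0.56), Fgf8, by 4.06 (SE 0.77), and Fgf4, by 1.61 (SE 0.32), and Cdx2, a direct activator of trunk Hox genes, by 1.84 (SE 0.31). Cdx2 read 7.40 and 7.81 at d3, 5.83 and 5.70 at d6 female, 4.24 and 5.09 at d3ag6, 5.18 and 4.79 at d6 male, 7.11 and 7.47 at E9.5, and 6.53 and 7.06 at E12.5. It was not called between E9.5 and E12.5.

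Of 27 tested Polycomb and Trithorax genes, whose products keep Hox genes silent or active, none was called from d3 to d6 with limma. The share over all tested genes there was 4.05%. From E9.5 to E12.5, 6 rose and 3 fell, where 23.6% of all genes were called. The Polycomb components Cbx8 (2.55, SE 0.52), Kdm2b (2.02, SE 0.18), Bmi1 (1.62, SE 0.22) and Ezh1 (1.19, SE 0.30) rose. Other Polycomb components fell, namely Pcgf1 (-1.23, SE 0.22), Phc2 (-1.04, SE 0.15) and Cbx7 (-0.84, SE 0.14). The Trithorax genes Kmt2a (0.95, SE 0.28) and Wdr5 (0.66, SE 0.16) rose as well. The same 27 genes had 3 higher and 4 lower from d3 to d3ag6, where 10.6% of all genes were called. The 3 higher were Cbx8 at 2.28, Bmi1 at 1.78 and Kdm2b at 1.09. The 4 lower were Cbx7 at -0.75, Phc2 at -0.75, Kdm6a at -0.73 and Cbx2 at -0.55.

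The nearest measured genes beside the 4 clusters, 22 tested of 24, were called about as often as all genes in the embryonic step. From d3 to d6 1 of 22 was called, where 4.05% of all genes were, Evx1, a homeobox gene at the posterior end of the Hoxa cluster, which fell by 2.30 (SE 0.26) and read 8.60 and 8.76 at d3 and 5.98 and 6.77 at d6 female. From E9.5 to E12.5, 4 of 22 rose and 1 fell, with a median of 0.2, where 23.6% of all genes were called. The antisense transcript Hoxb5os, in the Hoxb cluster, read 10.18 and 8.24 at E9.5 and between 5.90 and 7.09 on every other array, and it fell by 2.24 to E12.5 (SE 0.53; limma adjusted p 0.0154). Whether its probe set and those of the neighbouring Hoxb genes measure separate transcripts was not tested. Another antisense transcript, Hoxa11os, was called in no comparison (-0.97 from E9.5 to E12.5, SE 0.4, limma adjusted p 0.114). Hoxd3os1 did not pass the filter and was not tested.

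Somatic mesoderm markers moved beside the d3 to d6 fall, in a comparison where 4.05% of all tested genes were called. Of 12 tested, 2 fell (Tbx3 by 3.18, SE 0.40, and Msx1 by 2.88, SE 0.19) and Lhx1 rose by 2.52 (SE 0.22). The summed signal of the 14 measured markers, as log2, was 10.65 and 10.98 at d3 and 10.21 and 10.19 at d6 female, with 8 of 14 above the filter level on each of these arrays and none at 0. Their part in the fall of the Hox genes was not tested.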

How the data were processed

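RNA from 12 samples was hybridised to Affymetrix mouse expression arrays. The deposited table gives 1 log2 value per probe set and array; the log2 scale was read from the range of the values (array maxima 13.76 to 13.93), and the log base, probe summarisation and normalization are not given in the sources used here. Amplification from 5 ng of RNA can widen the spread of dim genes: 2.07% to 2.3% of the values of an array are exactly 0. The number of arrays, 2 a group, limits the precision.

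Of 45101 probe sets, 64 controls were left out. Through the platform's annotation 34945 named 1 gene, 932 several and 9160 none, and 34754 of the first were matched to the RefSeq gene table (GRCm38.p6). Array medians were 4.73 to 4.87, and values were quantile normalized between arrays. Genes were represented by their brightest probe set, filtered at the median of all values (at least 2 arrays above 4.81) and tested with limma 3.58.1 in R 4.3.3 (lmFit, eBayes, two-sided, 6 residual degrees of freedom). The fit was tested on simulated data.

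Array values are given for every member called in any comparison and for the 3 members with the highest mean; paralogs of called members are given by group means and untested members by their range. Members, lists and comparisons were chosen with earlier results of these data known. Replicate numbers were not used to pair the samples in the main fit. Deviations of same-numbered arrays correlated at -0.252 to 0.547 between groups. The highest was for E9.5 and d6 male, whose same-numbered arrays share an array code. Alternatives were another filter or none, deposited values, all probe sets of a gene averaged, dim values set to the filter level, another variance prior, a replicate block, an array code block, fewer arrays, and each probe set tested on its own.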

Additional observations from a re-analysis of the deposited data

Results flagged for a closer look

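Hoxb1 differed between the culture step (d3 to d3ag6) and the embryonic step (E9.5 to E12.5) by 3.89 on the log2 scale, and Hoxd8 by 1.64, both by the interaction term of the limma fit. A second Hoxd8 probe set gave 0.69 (limma adjusted p 0.603), not called. Hoxb1 read under the filter level on every array but those of E9.5, which left little room to measure a fall in culture. With values under the level set to it the gap was 1.89.

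Probe sets outside the main measurement gave a signal at E9.5 that the represented probe set of the gene lacked. They were 1427433_s_at of Hoxa3, at -5.85 from E9.5 to E12.5, 1448926_at of Hoxa5, at -3.97 from E9.5 to E12.5, and 1427454_at of Hoxc6, at -4.41 between E9.5 and d6 female cells. All of these were noticed by testing every probe set on its own after seeing the data.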

How the results depend on the processing

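No called difference of a Hox gene changed sign under any setting run. Requiring 2 arrays above the 75th percentile left Hoxd9 as the one testable member. The count of called members was then 1 for d6 female against d3, d3ag6 against d3 and the 4 comparisons with E9.5. It was 0 for d3ag6 against E12.5 and for the interaction. For d3 against E9.5 Hoxd9 was higher at d3, by 0.92, whereas the 5 members called there in the main fit were lower. With values under the filter level set to it, the count was 3 for d6 female against d3, 3 for d3ag6 against d3, 0 for d3ag6 against E12.5, 6 for d6 female against E9.5 and 7 for d6 male against E9.5, so that part of the calls rests on dim values. Averaging all probe sets of a gene gave 3 for d6 female against d3 and 0 for d3ag6 against E12.5. With no filter the count was 0 for d3ag6 against E12.5 and 1 for the interaction, and with the deposited values it was 0 for d3ag6 against E12.5; the cause was not tested.

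Fitting only the arrays coded EA1013 gave 1 called member for d3ag6 against d6 female, 2 for d3ag6 against E12.5 and 2 for d6 female against E12.5. Testing each probe set on its own gave 2 and 1 for the last 2 of these. The replicate block gave 0 for d3ag6 against E12.5, and of 52 gene calls it ended 2, Hoxa10 there (adjusted p 0.0501) and Hoxd3 for d6 male against E9.5 (0.0502); it changed no other call.

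Leaving out 1 array gave counts of 1 to 3 for d6 female against d3, 0 to 1 for d3ag6 against E12.5, 0 to 1 for d6 female against E12.5, 6 to 11 for d6 male against E9.5, 7 to 12 for d6 female against E9.5, 10 to 13 for E12.5 against E9.5, 2 to 9 for d3 against E9.5 and 1 to 5 for the interaction. Signals under the filter level limit what can be said of size: most called genes lie under it in 1 of the 2 groups compared.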
